A study of Mus musculus with 4 samples.

Results

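The interleukin 1 family and its receptors were followed as 9 genes of the 32285 in the count tables: the ligands Il1a, Il1b, Il1f9 and Il18, the antagonist Il1rn, the receptors Il1r1 and Il1rl1, the shared receptor chain Il1rap and the decoy receptor Il1r2. They were chosen by name, to describe which cells carried the ligands and which carried the receptors. All 9 had UMIs (unique molecular identifiers, 1 per captured RNA molecule) in kept cells of each of the 4 libraries. The study asked what somatosensory nerves contribute to the response to injury of the physis, the growth plate of a long bone. All 4 libraries came from TrkAF592A mice, whose altered TrkA kinase is sensitive to the inhibitor 1NMPP1, so the vehicle libraries carry the same allele. The groups were growth plate 1NMPP1, growth plate vehicle, DRG (dorsal root ganglion) 1NMPP1 and DRG vehicle, with 1 library each. The 1NMPP1 mice were injected with 17 µg of 1NMPP1 per g body weight 48 h and 2 h ahead of surgery, then drank water with 40 µM of it, and the controls received DMSO. Tissue was taken 7 days after injury, from the distal femur epiphysis around the injured growth plate or from lumbar ganglia L1 to L5. The labels give neither age nor sex, nor how many mice went into a library.

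Interleukin 1α and interleukin 1β bind the receptor encoded by Il1r1, which recruits the accessory chain encoded by Il1rap and passes the signal through Myd88 to NF-κB. The antagonist encoded by Il1rn occupies the same receptor without signalling, and the decoy receptor encoded by Il1r2 binds ligand but lacks the signalling domain. Interleukin 1β and interleukin 18 are made as precursors and cut by caspase 1 in inflammasomes, and in injured bone and nerve these cytokines are best known from myeloid cells.

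The members lie on 4 mouse chromosomes in the GRCm38 build, by the GENCODE release 21 annotation. Il1f9 (chromosome 2, 24186476 to 24193568) and Il1rn (chromosome 2, 24336853 to 24351494) lie near each other on the plus strand, and Il1a (chromosome 2, 129299610 to 129309972) and Il1b (chromosome 2, 129364570 to 129371139) on the minus strand. Il1r2 (chromosome 1, 40074079 to 40125231), Il1r1 (chromosome 1, 40225080 to 40317257) and Il1rl1 (chromosome 1, 40429570 to 40465415) form a receptor cluster, all on the plus strand. Il18 lies on chromosome 9 (50554827 to 50581840) and Il1rap on chromosome 16 (26581704 to 26730117). Il1a, Il1b, Il18, Il1r2 and Il1rap each overlap an annotated gene on the opposite strand, among them Il1bos over Il1b, and Il1r1 and Il1r2 each overlap 1 predicted gene on their own strand.

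The promoters of Il1b, Il1f9 and Il1r2, 3 of the 4 members found mainly in neutrophil-like cells in both tissues (the other is Il1rn), are shown because their levels were higher in later neutrophil stages, and both promoters of Il1rl1 because that gene was found in basophil and mast-like and in erythroid-like cells. Each sequence is the 250 bases before a RefSeq transcript start (GRCm38.p6), written 5′ to 3′ on the gene's strand, with capitals for motif matches. They are Il1b at chr2:129371140-129371389 (minus strand), Il1f9 at chr2:24186226-24186475 (plus), Il1r2 at chr1:40085843-40086092 (plus), and Il1rl1 at chr1:40429320-40429569 and chr1:40439379-40439628 (plus).
Il1b: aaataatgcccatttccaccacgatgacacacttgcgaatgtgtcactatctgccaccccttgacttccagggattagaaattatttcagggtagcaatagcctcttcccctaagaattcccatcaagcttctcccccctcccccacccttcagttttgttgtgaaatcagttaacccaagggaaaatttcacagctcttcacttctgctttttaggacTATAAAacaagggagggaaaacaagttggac
Il1f9: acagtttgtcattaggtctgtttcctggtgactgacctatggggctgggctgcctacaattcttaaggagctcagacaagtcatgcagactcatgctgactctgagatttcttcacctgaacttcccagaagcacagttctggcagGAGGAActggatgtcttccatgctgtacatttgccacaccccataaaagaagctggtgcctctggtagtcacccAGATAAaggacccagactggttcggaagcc
Il1r2: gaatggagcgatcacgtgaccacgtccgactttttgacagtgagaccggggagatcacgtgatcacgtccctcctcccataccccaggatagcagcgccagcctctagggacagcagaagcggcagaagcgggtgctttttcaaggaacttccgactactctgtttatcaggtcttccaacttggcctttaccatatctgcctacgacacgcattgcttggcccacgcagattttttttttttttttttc
Il1rl1 upstream start: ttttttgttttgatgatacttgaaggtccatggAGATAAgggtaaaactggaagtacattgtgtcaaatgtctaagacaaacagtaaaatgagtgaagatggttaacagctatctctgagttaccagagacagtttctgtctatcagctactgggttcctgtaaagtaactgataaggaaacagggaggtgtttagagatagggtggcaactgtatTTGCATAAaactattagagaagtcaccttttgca
Il1rl1 downstream start: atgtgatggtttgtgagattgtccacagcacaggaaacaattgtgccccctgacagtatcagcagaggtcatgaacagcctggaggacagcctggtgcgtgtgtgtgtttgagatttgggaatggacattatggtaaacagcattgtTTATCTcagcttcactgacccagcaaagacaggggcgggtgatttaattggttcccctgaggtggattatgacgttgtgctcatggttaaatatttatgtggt
The motifs searched were TTGCNNAA (C/EBP), GAGGAA (PU.1), GGANTTTCC (NF-κB), TGACTCA (AP-1) and, for factors of the GATA family, the letters AGATAA on both strands, and TATAAA on the gene's strand. Of all windows, 1.07% held the NF-κB motif and 4.46% the AP-1 motif. No 2 matches overlapped in these windows. The Il1b window held TATAAA 31 to 26 bases before the start, a match found in 7.60% of 32817 such windows. The Il1f9 window held GAGGAA 104 to 99 bases before the start (23.3% of windows) and AGATAA 30 to 25 bases before it (9.99%). None of the 6 motifs was in the Il1r2 window. Both Il1rl1 windows held a GATA match, at 217 to 212 bases before the upstream start and, on the other strand, 103 to 98 before the downstream start. The upstream window also held TTGCATAA, a C/EBP match, 34 to 27 bases before the start (9.57% of windows hold one). A match is a description of letters, and the count tables do not record which start a transcript used.

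The libraries held 139703885 UMIs (growth plate 1NMPP1), 102692919 (growth plate vehicle), 32790205 (DRG 1NMPP1) and 57303037 (DRG vehicle). The kept cells numbered 10541 and 8662 for the growth plate, and 2152 and 2841 for the DRG, again with 1NMPP1 given ahead of vehicle. Any pair of libraries shared 4 to 40 barcodes. Neutrophil-like cells were common in both tissues, at 50.5% and 46.5% of kept growth plate cells, and 21.8% and 12.3% of kept DRG cells. Chondrocyte-like cells numbered 6 and 78 in the growth plate. The DRG vehicle library held 56 of them, while no cell of the DRG 1NMPP1 library took that name. Sensory neuron-like cells numbered 65 and 190 in the DRG, at median depths of 3854 and 957 UMIs. The libraries also differed in Y-linked and Xist RNA. Cells that showed Y-linked RNA but lacked Xist were 24.9% of growth plate 1NMPP1 cells and 49.8% of growth plate vehicle cells, and 17.4% of DRG 1NMPP1 cells and 45.4% of DRG vehicle cells. The part of sex, of single mice and of library preparation in any difference below cannot be told apart from that of 1NMPP1, since each group is 1 library. No test across groups was possible, and intervals cover counting error only. Levels are UMIs per 1000000 UMIs of a class (CPM), and a difference is the log2 ratio of 1NMPP1 over vehicle. A member was read in a class with at least 20 UMIs over both libraries, and was called higher or lower past 2-fold, a log2 ratio of 1.

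**Figure D1:**
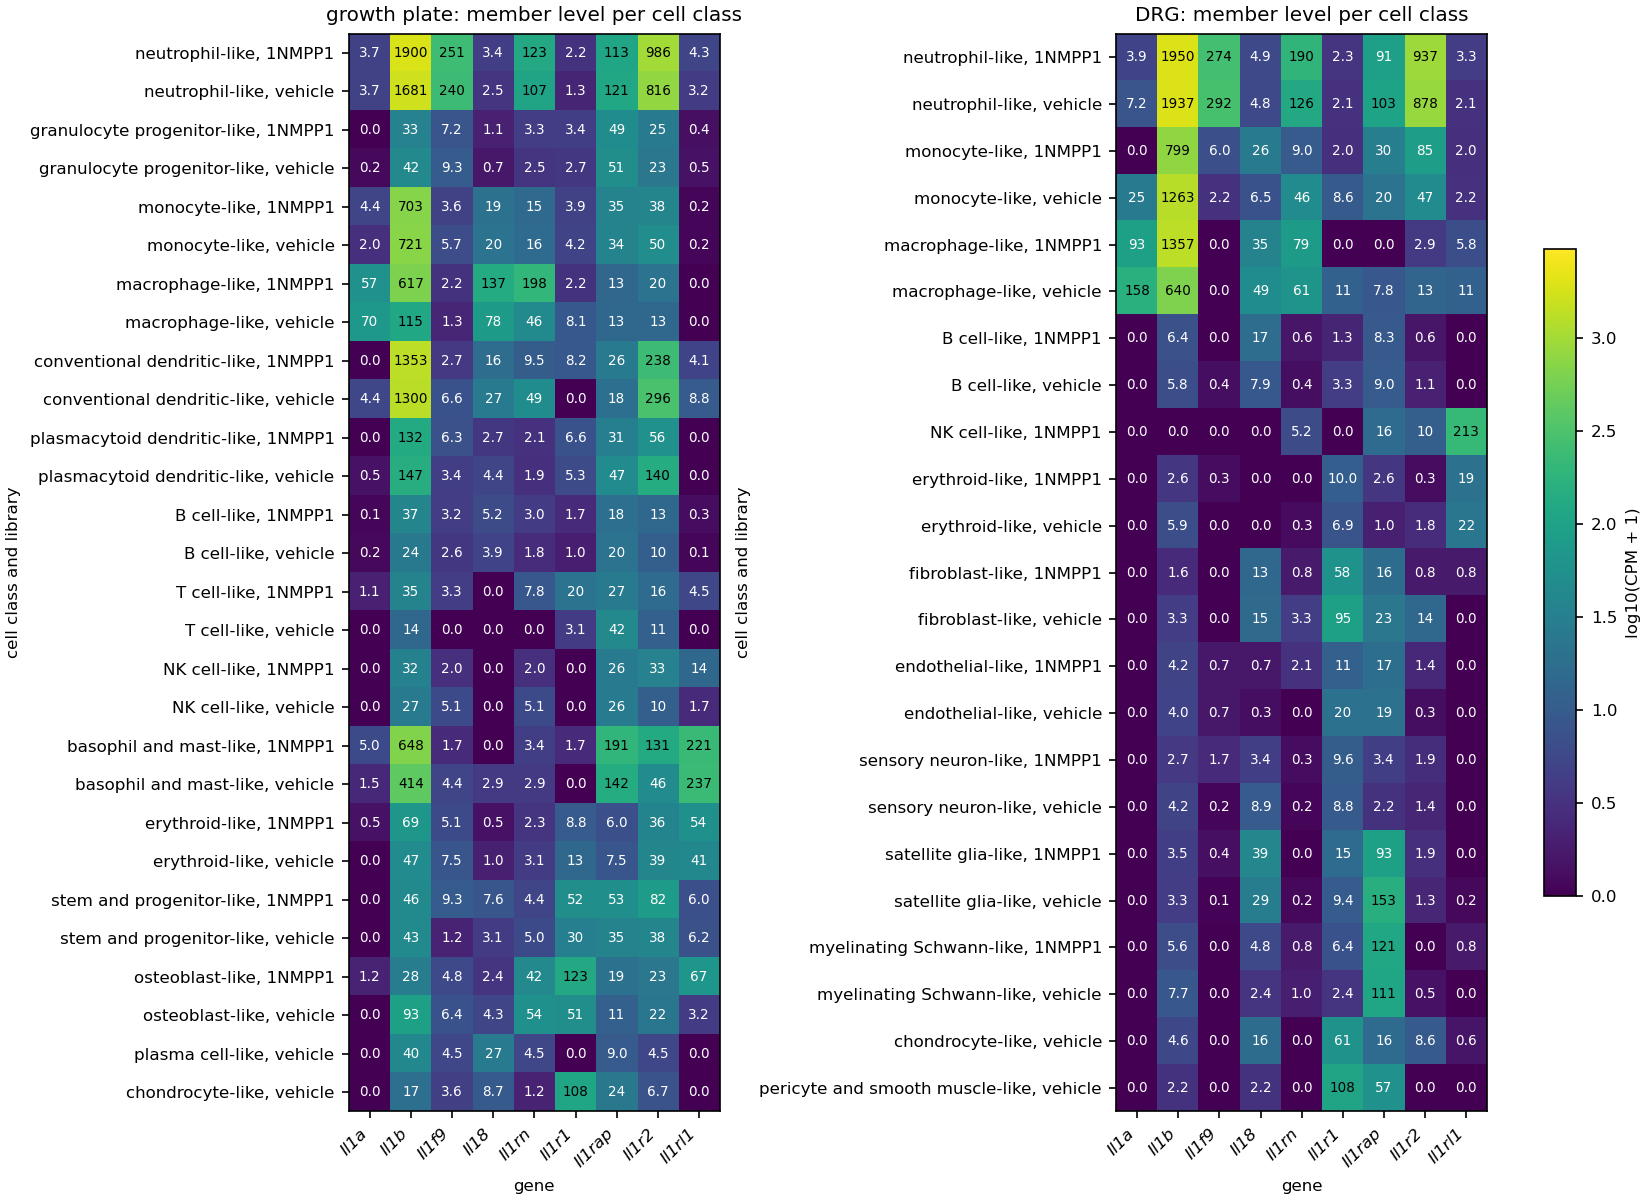
Level of the 9 members (columns) in each cell class of at least 30 cells (rows, the 1NMPP1 library above the vehicle library), with the growth plate on the left and the DRG on the right. Numbers in the cells are CPM and colour is log10(CPM + 1). Il1b, Il1f9 and Il1r2 stand out in the neutrophil-like rows and Il1a in macrophage-like rows. Il1r1 stands out in stromal rows and in growth plate stem and progenitor-like rows, and Il1rap also in the glial rows of the DRG.

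Il1b, the secreted interleukin 1 ligand that myeloid cells make on activation, was found mostly in neutrophil-like cells. Those cells held 80.1% and 78.9% of the Il1b UMIs of the growth plate 1NMPP1 and vehicle libraries, and 72.2% and 64.2% of those of the DRG 1NMPP1 and vehicle libraries. Its level there was 1900 CPM in growth plate 1NMPP1 (95% Poisson interval 1887 to 1914) and 1681 CPM in growth plate vehicle. In DRG neutrophil-like cells it was 1950 CPM with 1NMPP1 and 1937 CPM with vehicle, so the 4 libraries lay within a narrow band. Conventional dendritic-like cells came next in the growth plate, at 1353 CPM (1NMPP1) and 1300 CPM (vehicle), followed by monocyte-like cells at 703 and 721 CPM. Of the conventional dendritic-like UMIs, 250 of 995 in 1NMPP1 and 254 of 588 in vehicle were in 1 cell. Their log2 ratio was 0.06, and 0.81 without that vehicle cell. Basophil and mast-like cells had 648 CPM (386 UMIs, 108 in 1 cell) and 414 CPM (285 UMIs, 139 in 1 cell). A UMI was found in 34 of 61 and 24 of 67 of those cells. In the DRG, monocyte-like cells stood at 799 CPM (1NMPP1) and 1263 CPM (vehicle), and macrophage-like cells at 1357 and 640 CPM, so the order of these classes differed between the libraries. Lymphoid and erythroid levels were low: B cell-like cells had 37.2 and 24.3 CPM in the growth plate, and 6.35 and 5.78 CPM in the DRG.

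Free RNA from neutrophils can put UMIs into cells that do not make a transcript, so each class was set against the Il1b expected if all of it came along with S100a8, an abundant neutrophil RNA. B cell-like cells of the growth plate held 851 Il1b UMIs in 1NMPP1 against 652 expected, and 370 in vehicle against 373 expected. The share of B cell-like cells with an Il1b UMI was 25.6% and 16.8%, at median depths of 6794.5 and 5544 UMIs, against 69.9% and 63.3% of neutrophil-like cells at 5759 and 5561 UMIs. After thinning every cell to 1000 UMIs, the B cell-like shares were 3.53% and 3.73%, and the neutrophil-like shares 51.7% and 47.8%. Erythroid-like cells of the growth plate held 148 and 138 UMIs, with 93.5 and 148 expected. The vehicle values of both classes were close to this expectation and are read as background, while the 1NMPP1 values were above it. Of the 148 erythroid-like UMIs of 1NMPP1, 64 were in 1 cell. Monocyte-like cells held 13928 and 9440 Il1b UMIs where 710 and 600 were expected. Granulocyte progenitor-like cells were on the other side, with 591 and 641 UMIs where their S100a8 would bring 10456 and 7127.

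Within neutrophil-like cells Il1b varied far more between maturation stages than between libraries. Clusters were put in order by the falling level of the secondary granule genes Camp, Ltf and Ngp, which neutrophils switch off as they mature. Among the large growth plate clusters, Il1b was 32.8 CPM in 1NMPP1 and 32.3 CPM in vehicle in the most immature one (cluster 7). It was 86.9 and 94.3 CPM in the next (cluster 1), 697 and 714 CPM in cluster 0, and 2532 and 2742 CPM in cluster 3. It was 10381 and 11071 CPM in cluster 5, and 6141 and 6898 CPM in cluster 4, the last with the least granule RNA. In the DRG the same order ran 38.3 and 34.7 CPM in cluster 14.0, 338 and 293 CPM in cluster 10, 2349 and 2303 CPM in cluster 9, and 8393 and 6830 CPM in cluster 2.

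The pooled growth plate ratio and the ratios within clusters had opposite signs. Pooled over neutrophil-like cells, Il1b had a log2 ratio of 0.18 (95% interval 0.16 to 0.19), and the median over all genes was 0.06. Within clusters 1, 0, 3, 5 and 4 it was -0.12, -0.03, -0.12, -0.09 and -0.17, all on the vehicle side. In the clusters with more granule RNA, where Il1b was low, ratios were of either sign, at -1.42 in cluster 18, 0.02 in cluster 7, 1.15 in cluster 13.2 and 1.80 in cluster 12.1. Cluster 5, which had the highest Il1b, was 8.10% of kept cells in 1NMPP1 and 5.58% in vehicle, and cluster 4 was 7.52% and 6.55%. A difference in cluster shares and a difference in level per cell therefore enter the pooled value together.

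**Figure D2:**
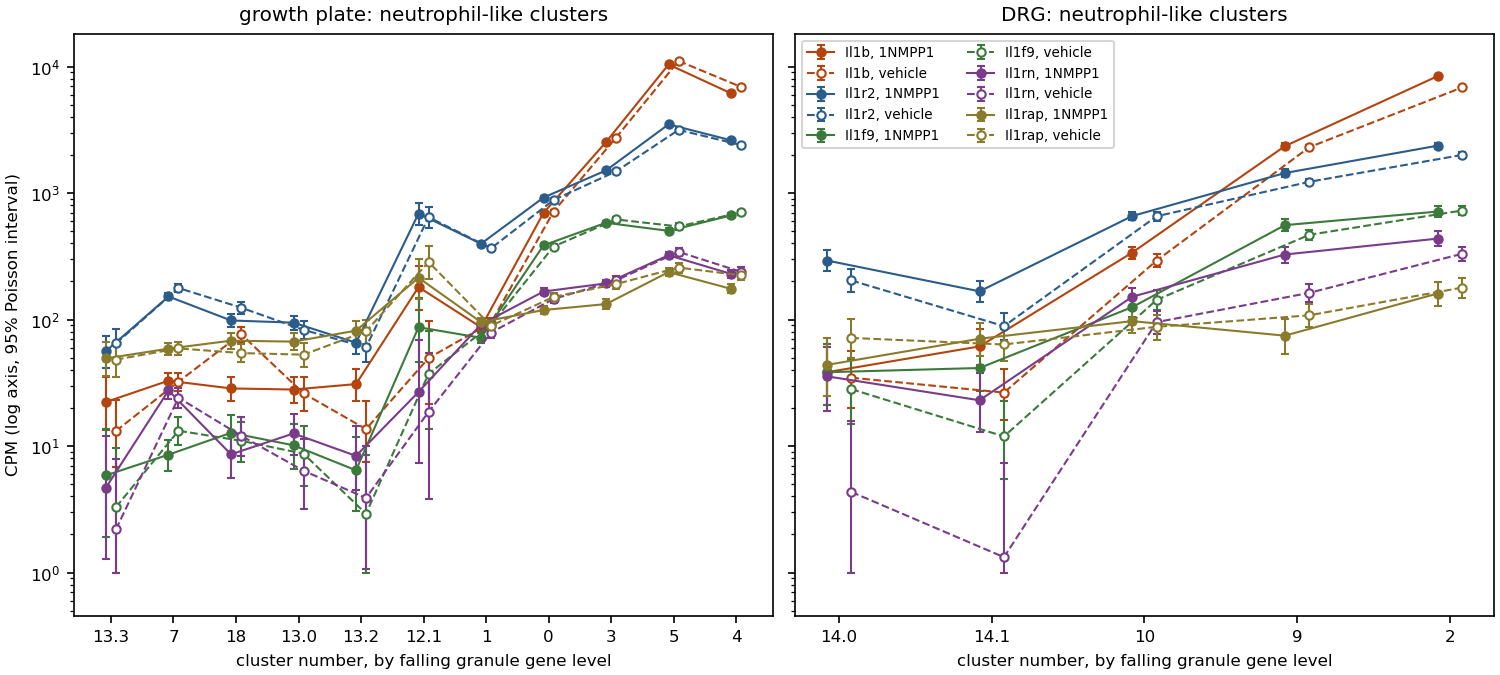
Levels of Il1b, Il1r2, Il1f9, Il1rn and Il1rap (CPM, log axis, 95% Poisson intervals) in neutrophil-like clusters of at least 20 cells per library, from high granule gene level on the left to low on the right. Filled points are 1NMPP1 and open points vehicle. Il1b reached 10381 and 11071 CPM in growth plate cluster 5, and 8393 and 6830 CPM in DRG cluster 2. Il1rn was higher in 1NMPP1 in all 5 DRG clusters.

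Il1f9 encodes interleukin 36γ, a ligand that acts through the receptor encoded by Il1rl2 together with Il1rap. It was the member most confined to neutrophil-like cells, which held 95.4% and 93.5% of its growth plate UMIs and 97.5% and 96.6% of its DRG UMIs. Its level there was 251 CPM in growth plate 1NMPP1 and 240 CPM in vehicle, and 274 and 292 CPM in the DRG. It appeared at an earlier stage than most Il1b: growth plate cluster 0 already had 386 and 378 CPM, cluster 3 had 582 and 618 CPM, and cluster 4 had 665 and 704 CPM. In growth plate monocyte-like cells there were 72 and 75 UMIs where free RNA would bring 93.7 and 85.6, so no level above background was detectable there. Its receptor gene Il1rl2 reached 22.7 CPM in growth plate osteoblast-like cells with 1NMPP1 and 4.27 CPM with vehicle, on 19 and 4 UMIs.

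Il1a, the ligand that can act without being cut and from inside the cell, was sparse and led by macrophage-like cells. Its level in them was 57.3 CPM (26 UMIs) in growth plate 1NMPP1 and 69.8 CPM (52 UMIs) in vehicle, and 93.2 CPM (32 UMIs) in DRG 1NMPP1 and 158 CPM (101 UMIs) in vehicle. Growth plate neutrophil-like cells held more Il1a UMIs, 145 and 108, at a level of 3.65 and 3.71 CPM. Of those, 123 and 81 were in cluster 5, the cluster with the highest Il1b, where the level was 33.6 and 43.0 CPM. In thinned cells, Il1b was found in 28 of the 29 growth plate 1NMPP1 neutrophil-like cells with Il1a, and in all 18 of those in vehicle.

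Il18 followed another distribution, with macrophages, monocytes and glia in front. In the growth plate its level was 137 CPM (1NMPP1) and 77.9 CPM (vehicle) in macrophage-like cells, and 18.9 and 19.8 CPM in monocyte-like cells, which held 48.7% and 48.9% of its UMIs. In the DRG the largest share, 37.9% and 50.2%, was in satellite glia-like cells, the glia that wrap neuron cell bodies, at 39.3 CPM (95% Poisson interval 32.0 to 47.7) and 29.1 CPM (25.9 to 32.5). Sensory neuron-like cells had 3.44 and 8.91 CPM, a log2 ratio of -1.35 (-2.08 to -0.73). Of the vehicle UMIs, 83 of 111 came from 47 cells of 1 cluster led by Tac1, Gal and Calca, and the 1NMPP1 library had under 20 cells of it. Its receptor genes were found elsewhere: in growth plate NK cell-like cells Il18r1 was 410 and 398 CPM and Il18rap 360 and 369 CPM, and in basophil and mast-like cells Il18r1 was 425 and 266 CPM.

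Il1rn, the natural blocker of the interleukin 1 receptor, shared its main source with Il1b. Neutrophil-like cells held 88.0% and 87.3% of its growth plate UMIs at 123 and 107 CPM, and 85.6% and 77.6% of its DRG UMIs at 190 CPM in 1NMPP1 and 126 CPM in vehicle. The DRG ratio was 0.59 on the log2 scale (0.41 to 0.77), under 2-fold, and the median over all genes was 0.09. It was on the same side in all 5 DRG clusters, at 35.6 and 4.33 CPM in cluster 14.0, 23.0 and 1.32 CPM in cluster 14.1, 151 and 95.3 CPM in cluster 10, 327 and 163 CPM in cluster 9, and 436 and 331 CPM in cluster 2. The vehicle levels of clusters 14.0 and 14.1 rest on few UMIs. In growth plate clusters 0, 3, 5 and 4 the log2 ratios of Il1rn were 0.20, -0.08, -0.09 and -0.06. Its UMIs were also found in a few osteoblast-like cells of the growth plate, at 41.9 CPM (35 UMIs) and 54.5 CPM (51 UMIs). They lay in 4 of 34 and 8 of 41 cells, with 15 and 22 UMIs in 1 cell. Neutrophil markers in that class summed to 6973 and 33286 CPM, and their part was not tested.

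Il1r2, the decoy receptor that soaks up ligand, went with the cells that carried the ligand. Neutrophil-like cells held 92.2% and 89.3% of its growth plate UMIs at 986 and 816 CPM, and 94.2% and 91.8% of its DRG UMIs at 937 and 878 CPM. Its share of cells with a UMI in them was 88.5% and 87.8% in the growth plate, against 9.57% and 6.39% of B cell-like cells. It was present in immature clusters, at 152 and 178 CPM in growth plate cluster 7 and 397 and 366 CPM in cluster 1. It reached 921 and 880 CPM in cluster 0, 1509 and 1483 CPM in cluster 3, 3491 and 3157 CPM in cluster 5, and 2613 and 2398 CPM in cluster 4. Conventional dendritic-like cells had 238 and 296 CPM, on 175 and 134 UMIs, where free neutrophil RNA would bring 18.1 and 2.71. Monocyte-like cells had 37.5 and 50.05 CPM in the growth plate, and 84.7 and 46.6 CPM in the DRG.

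Ligand, decoy and antagonist were found in the same neutrophil-like cells. With each cell thinned to 1000 UMIs, Il1r2 was detected in 74.4% of growth plate 1NMPP1 cells with Il1b and in 33.6% of those without, and in vehicle in 72.3% and 32.8%. In the DRG those shares were 76.0% and 35.7% in 1NMPP1, and 69.4% and 38.2% in vehicle. Il1f9 was in 37.4% of growth plate 1NMPP1 cells with Il1b and in 11.9% of those without, and in vehicle in 38.6% and 13.02%. Il1rn was in 17.8% and 9.21% in growth plate 1NMPP1, and in 19.0% and 7.92% in vehicle. In the DRG, Il1rn was in 28.5% of 1NMPP1 cells with Il1b and 13.8% of those without, and in vehicle in 17.2% and 9.87%. Levels of all of these genes were higher in later stages, so cells with and without Il1b also differed in stage.

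Il1r1, the signalling receptor, stood out in stromal classes of both tissues and in growth plate stem and progenitor-like cells. There was little in the cells that carried Il1b. In the growth plate its level was 123 CPM in 1NMPP1 (101 to 149) and 51.3 CPM in vehicle (37.8 to 68.0) in osteoblast-like cells. Stem and progenitor-like cells had 51.7 CPM in 1NMPP1 and 30.4 CPM in vehicle, a log2 ratio of 0.76. A UMI was found in 34 of 65 and 17 of 57 of them, against 13 of 34 and 13 of 41 osteoblast-like cells. The 78 chondrocyte-like cells of the vehicle library had 108 CPM and held 39.5% of its Il1r1 UMIs, and the 6 such cells of the 1NMPP1 library were too few to give a level. In the DRG, fibroblast-like cells had 57.9 CPM (73 UMIs) in 1NMPP1 and 94.8 CPM (142 UMIs) in vehicle, a log2 ratio of -0.71. Vehicle pericyte and smooth muscle-like cells stood at 108 CPM, and 17 such cells in the 1NMPP1 library were under the minimum of 30. Satellite glia-like cells had 15.4 and 9.43 CPM, sensory neuron-like cells 9.60 and 8.75 CPM, and endothelial-like cells 10.5 and 19.7 CPM. Neutrophil-like cells of the growth plate had 2.22 and 1.27 CPM. Counting intervals put chondrocyte-like cells (95.6 to 122) above osteoblast-like cells in the growth plate vehicle library, while pericyte and smooth muscle-like cells (79.8 to 143) and fibroblast-like cells (79.8 to 112) overlapped in the DRG vehicle library.

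Il1rap, the accessory chain that the receptors for interleukin 1, interleukin 33 and interleukin 36 share, was found in myeloid, progenitor and glial classes. In the growth plate it was 191 and 142 CPM in basophil and mast-like cells, 113 and 121 CPM in neutrophil-like cells, 52.8 and 35.3 CPM in stem and progenitor-like cells, and 48.7 and 51.3 CPM in granulocyte progenitor-like cells. In the late neutrophil-like clusters 0, 3, 5 and 4 it was lower in 1NMPP1, with log2 ratios of -0.34, -0.53, -0.12 and -0.36. In the DRG it was high in glia: myelinating Schwann-like cells had 121 CPM (150 UMIs) and 111 CPM (230 UMIs), and satellite glia-like cells 92.8 CPM (241 UMIs) and 153 CPM (1611 UMIs). The satellite glia ratio was -0.72 (-0.93 to -0.53), but the libraries filled different clusters of that class. Cluster 1 had 341 vehicle cells at 146 CPM and cluster 4.1 had 72 at 425 CPM, with under 20 cells of 1NMPP1 in each. In cluster 6, which both libraries filled with 138 and 111 cells, the levels were 79.7 and 91.6 CPM.

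Il1rl1 encodes ST2, the receptor for interleukin 33 on mast cells and type 2 lymphocytes. Its level was 221 CPM (132 UMIs) in 1NMPP1 and 237 CPM (163 UMIs) in vehicle in growth plate basophil and mast-like cells, where 60.7% and 62.7% of cells had a UMI. Growth plate neutrophil-like cells held 32.3% and 22.3% of the Il1rl1 UMIs, at a level of 4.33 and 3.16 CPM. Erythroid-like cells had 54.3 and 40.7 CPM in the growth plate and 19.3 and 22.3 CPM in the DRG. In both tissues these UMIs were in 1 erythroid-like cluster: 116 of 117 and all 119 in the growth plate, and all 68 and 85 of 87 in the DRG. The DRG NK cell-like cluster, led by Ccl5 and Gzma, had 213 CPM in 33 cells of 1NMPP1 and 200 CPM in 25 cells of vehicle, and 5 of the 33 cells carried all of its 41 UMIs. The ligand gene of this receptor, Il33, was found in DRG fibroblast-like cells at 110 and 115 CPM.

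Of 117 member and class pairs in 13 growth plate classes, 73 were read, and 10 were higher and 3 lower in 1NMPP1. Over all genes read in those classes 5.83% of gene and class pairs were past 2-fold, 2.6% higher and 3.23% lower. Of 90 pairs in 10 DRG classes, 40 were read, and 3 were higher and 5 lower, where 11.4% of all gene and class pairs were past 2-fold, 5.77% higher and 5.63% lower. No member passed in neutrophil-like cells of either tissue, where 3.28% (growth plate) and 6.63% (DRG) of all genes did. Without the cell that held most UMIs of the member, a setting chosen after seeing the data, 10 of the 13 growth plate calls kept their sign and 4 were still past 2-fold. Of the 8 DRG calls, 8 kept their sign and 5 were still past 2-fold.

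**Figure D3:**
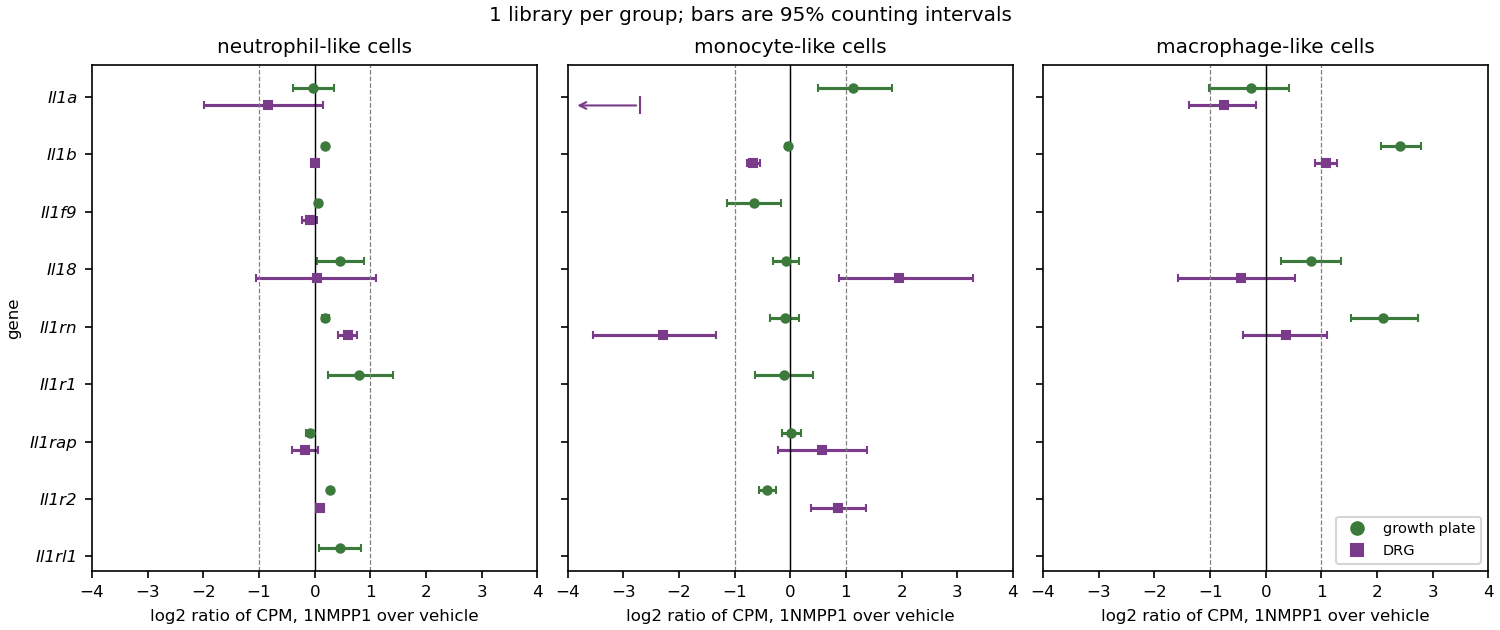
Log2 ratio of CPM (1NMPP1 over vehicle, with 95% counting intervals) of each member read in neutrophil-like, monocyte-like and macrophage-like cells. Circles are the growth plate, squares the DRG, and dashed lines mark 2-fold. Neutrophil-like ratios lie inside 2-fold, Il1b in macrophage-like cells lies past 2-fold in both tissues, and Il1a in DRG monocyte-like cells is drawn as an arrow from the upper bound of its interval because the 1NMPP1 library had 0 UMIs.

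In growth plate macrophage-like cells Il1b was 617 CPM in 1NMPP1 and 115 CPM in vehicle, a log2 ratio of 2.41 (2.06 to 2.78). In this class 10.5% of all genes were past 2-fold. Of the 280 UMIs of 1NMPP1, 191 were in 1 cell, and 17 of 50 cells carried any, against 25 of 46 cells in vehicle. Without that cell the ratio was 0.83. Il1rn behaved alike, at 198 CPM (90 UMIs, 55 in 1 cell) and 45.6 CPM (34 UMIs), with a ratio of 2.11, and 0.82 without its leading cell. Of the UMIs, 274 of 280 and 72 of 86 were in the macrophage-like cluster led by C1qa and Gdf15 (1189 and 180 CPM). The other, led by Ctsk and Mmp12, had 26.8 and 40.5 CPM. Neutrophil markers in this class summed to 4642 CPM in 1NMPP1 and 10974 CPM in vehicle, all 11 with UMIs in both, and their part in the result was not tested.

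In DRG macrophage-like cells Il1b was 1357 CPM (466 UMIs) in 1NMPP1 and 640 CPM (408 UMIs) in vehicle, a ratio of 1.08 (0.89 to 1.28), where 12.4% of all genes were past 2-fold. UMIs were spread over 37 cells in either library, and the ratio was 1.34 without the cell with most. The direction was not the same in each cluster: cluster 17.1 had 1930 and 481 CPM, while cluster 17.0 had 746 and 899 CPM. Cluster 17.2 had 22 vehicle cells at 523 CPM and under 20 of 1NMPP1. Il1a ran the other way in this class, with a ratio of -0.75. Erythroid markers summed to 670 CPM in 1NMPP1 and 25743 CPM in vehicle, and their part in the result was not tested.

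Monocyte-like cells of the DRG differed in 3 members past 2-fold, where 7.26% of all genes in that class did. Il1a had 0 UMIs in 71 cells of 1NMPP1, which allows up to 2.99 CPM, and 35 UMIs (25.1 CPM) in 9 of 56 vehicle cells. Set against a floor of 3 UMIs, it was 8.39-fold lower, a value that leaves out counting error in vehicle. Both monocyte-like clusters shared this, with 21 and 14 vehicle UMIs. Il1rn was 8.97 CPM (9 UMIs) and 45.9 CPM (64 UMIs), a ratio of -2.29 (-3.55 to -1.34), but 45 of the vehicle UMIs were in 1 cell and the ratio without it was -0.61. Il18 was 25.9 CPM (26 UMIs) and 6.45 CPM (9 UMIs), a ratio of 1.96 (0.87 to 3.28), and 1.75 without its leading cell. Il1b was on the vehicle side short of 2-fold, at -0.66 (-0.78 to -0.54), in both clusters (1404 and 2087 CPM in cluster 15.1, 443 and 860 CPM in cluster 16.0). Neutrophil markers summed to 3302 CPM in 1NMPP1 and 1506 CPM in vehicle, with Ly6g at 0 in vehicle, and their part in the result was not tested. In growth plate monocyte-like cells, where 3.0% of all genes were past 2-fold, Il1a was 4.39 CPM (87 UMIs in 24 cells) and 1.99 CPM (26 UMIs in 15 cells). That ratio was 1.12 (0.50 to 1.84), and 0.86 without the cell with most.

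The 34 and 41 osteoblast-like cells in the growth plate libraries held 3 calls, where 14.6% of all genes were past 2-fold. Il1r1, with the levels given above, had a log2 ratio of 1.26 (0.76 to 1.79), and 0.82 without the cell with most. Il1rl1 had a ratio of 4.18, but 51 of its 56 UMIs of 1NMPP1 were in 1 cell and the ratio without it was 0.97. Il1b was 27.5 and 92.9 CPM, a ratio of -1.73 (-2.49 to -1.08). Neutrophil markers in the class were at 6973 CPM in 1NMPP1 and 33286 CPM in vehicle, all 11 with UMIs in both. The osteoblast markers of the class summed to 73048 CPM in 1NMPP1 and 31702 CPM in vehicle. The part of either in these results was not tested.

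The remaining calls in the growth plate were in lymphoid, dendritic, basophil and progenitor classes. Il1b in T cell-like cells (34.6 and 13.9 CPM, ratio 1.26, where 5.81% of all genes were past 2-fold) lay beside neutrophil markers of 14536 CPM in 1NMPP1 and 3085 CPM in vehicle. Il1r1 in T cell-like cells was 18 UMIs and 2 UMIs, all 18 in 1 cell. Il1r2 in NK cell-like cells (34 and 6 UMIs, 4.85% of all genes past 2-fold) and in basophil and mast-like cells (78 and 32 UMIs, 8.21%) were on the other side of 0 without 1 cell, with ratios of -0.72 and -1.02. Il1rn in conventional dendritic-like cells was 7 and 22 UMIs (ratio -2.29, and 7.88% of all genes past 2-fold), and -0.94 without the leading cell. Il1r2 was 56.4 and 140 CPM in plasmacytoid dendritic-like cells, a ratio of -1.31 (-1.58 to -1.04, 3.25% of all genes past 2-fold), with 238 of the 288 vehicle UMIs in cluster 14.2. That ratio was 0.01 when no cells were removed as doublets. In stem and progenitor-like cells (4.35% of all genes past 2-fold) Il1r2 was 82.2 and 38.4 CPM, a ratio of 1.09. There, cluster 24.0 had 96.1 and 95.5 CPM and cluster 24.1 had 69.9 and 3.97 CPM.

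The remaining calls in the DRG rested on few UMIs. Il18 in B cell-like cells was 26 and 22 UMIs, a ratio of 1.05 where 8.84% of all genes were past 2-fold, beside erythroid markers of 7241 CPM in 1NMPP1 and 594 CPM in vehicle. Il1b in erythroid-like cells was 9 and 23 UMIs, a ratio of -1.16 where 24.6% of all genes were past 2-fold, and -0.25 without 1 cell. Il1r2 in fibroblast-like cells was 1 and 21 UMIs, a ratio of -3.59 where 9.36% of all genes were past 2-fold. Il18 in sensory neuron-like cells was named above, and 11.7% of all genes were past 2-fold in that class.

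**Figure D4:**
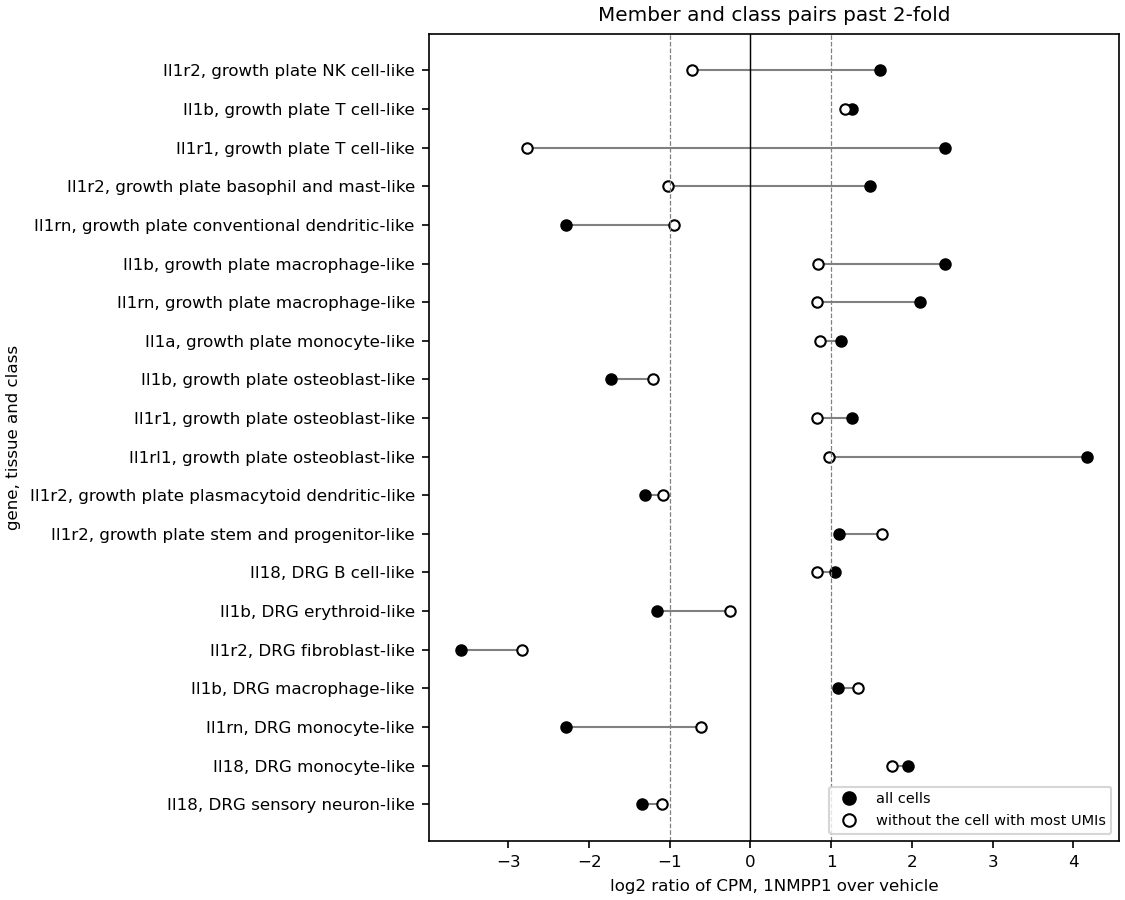
Log2 ratio of CPM (1NMPP1 over vehicle) for each member and class pair past 2-fold with UMIs in both libraries (rows), over all cells (filled) and without the cell that held most UMIs of the member (open). Dashed lines mark 2-fold. Il1r2 in NK cell-like and in basophil and mast-like cells and Il1r1 in T cell-like cells cross 0, while Il18 in DRG monocyte-like cells stays at 1.75 and Il1b in DRG macrophage-like cells at 1.34.

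The genes whose levels over 51 class and library profiles were most like those of the members are given as a description, since profiles share libraries and classes. Il1b was most like Ccl6 (Pearson r = 0.96), Nlrp3 (0.94) and Plbd1 (0.94) among 12389 genes. Nlrp3, the sensor of the inflammasome that processes interleukin 1β, had 320 and 267 CPM in growth plate neutrophil-like cells and 284 and 271 CPM in monocyte-like cells. Il1f9 was most like the neutrophil genes Olfm4, Ceacam10 and Stfa2l1 (all 0.98). Il1a was most like the macrophage genes C1qb (0.94), Ms4a7 (0.94) and C1qc (0.93). Il1rn was most like Fcgr4 (0.90), Cd33 (0.90) and Cd300ld (0.89), and Il1r2 like Adam8, Ifitm6 and Cd300lf (all 0.89). Il18 was most like Lgmn (0.81), Tmem106a (0.80) and Gpnmb (0.78). Il1r1 was most like Ppic (0.87), Npas2 (0.87) and Ddr2 (0.86), the last a collagen receptor of mesenchymal cells. Likeness was lower for Il1rap (Sntb1, 0.76) and for Il1rl1 (Gcnt1 at 0.76 and the mast cell protease gene Cma1 at 0.75).

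Around the members, 5 lists of 64 other genes were followed. Over all genes, 5.83% of read gene and class pairs were past 2-fold in the growth plate and 11.4% in the DRG. The 6 other ligands and binding proteins gave 6 read gene and class pairs in the growth plate and 5 in the DRG, none past 2-fold. The 6 other receptors gave 38 read pairs in the growth plate with 2 higher and 2 lower, and 12 in the DRG with 1 higher and 1 lower. Il18rap, the accessory chain for interleukin 18, was 216 and 199 CPM in growth plate neutrophil-like cells, and 233 and 155 CPM in DRG neutrophil-like cells. The 11 genes of the inflammasome and of release gave 116 read pairs in the growth plate (3 higher, 5 lower, 6.90% past 2-fold) and 73 in the DRG (1 higher, 3 lower, 5.48%). Casp1, the protease that cuts interleukin 1β, was 17.9 and 17.2 CPM in growth plate neutrophil-like cells and 56.7 and 54.6 CPM in monocyte-like cells. Nlrp3 was 302 and 144 CPM in growth plate conventional dendritic-like cells, a ratio of 1.06, and 0.91 without the cell with most UMIs. Nlrc4, another inflammasome sensor, had a ratio of 2.66 in DRG sensory neuron-like cells, but 110 of its 136 UMIs of 1NMPP1 were in 1 cell and the ratio without it was 0.36.

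The 16 genes of receptor signalling gave 189 read pairs in the growth plate (2 higher, 3 lower, 2.65% past 2-fold) and 146 in the DRG (8 higher, 3 lower, 7.53%). Over all genes those shares were 5.83% and 11.4%. Myd88, the adaptor of the receptor, was 79.7 and 40.3 CPM in DRG satellite glia-like cells, a ratio of 0.99 (0.74 to 1.23) that just missed 2-fold. Tab1, which couples the signal to the kinase TAK1, was higher in satellite glia-like cells (ratio 1.30, where 12.8% of all genes were past 2-fold) and in sensory neuron-like cells (1.42). The satellite glia ratios of Myd88 and Tab1 are pooled over clusters that the libraries filled unequally, and no value within a shared cluster was computed for them. The Tab1 ratio in sensory neuron-like cells is likewise pooled over clusters, at median depths of 3854 UMIs in 1NMPP1 and 957 UMIs in vehicle. In DRG B cell-like cells Irak1 (1.16) and Ikbkb (1.17) were higher and Traf6 (-1.05) was lower. Peli1, a ubiquitin ligase of the pathway, was lower in DRG macrophage-like cells (-1.03, and -0.90 without the cell with most UMIs).

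The 25 NF-κB response genes gave 245 read pairs in the growth plate (15 higher, 15 lower, 12.2% past 2-fold) and 179 in the DRG (8 higher, 27 lower, 19.6%). The shares over all genes were 5.83% and 11.4%. In DRG monocyte-like cells 9 of 21 read genes were lower and 0 higher, where 3.1% of all genes were lower and 4.15% higher, with a median log2 ratio of -0.89, beside 0.11 over all genes read. Nfkbia, the inhibitor that NF-κB itself induces, was 183 CPM (184 UMIs) and 789 CPM (1101 UMIs), a ratio of -2.10 (-2.34 to -1.88). Cxcl2, a neutrophil attractant, was 160 CPM and 1781 CPM, a ratio of -3.48. Sod2 was at -1.86, Il6 at -2.24, Icam1 at -1.36, Nfkbiz at -1.12 and Ptgs2 at -1.004. Without the cell with most UMIs the ratios were -1.98 for Nfkbia, -3.08 for Cxcl2, -1.65 for Sod2, -1.78 for Il6 and -1.06 for Icam1, while Nfkbiz (-0.93) and Ptgs2 (-0.84) were inside 2-fold. Saa3, an acute phase gene, had 0 UMIs in 1NMPP1 and 332 in 9 vehicle cells, 133 of them in 1 cell. Set against a floor of 3 UMIs, Saa3 was 79.6-fold lower, and the upper bound of its log2 ratio was -6.01. In growth plate monocyte-like cells 1 of 22 read genes was higher (Cxcl1, 1.02) and 1 lower (Saa3, -1.50), where 1.57% of all genes were higher and 1.43% lower, the median was -0.04, and Nfkbia was 623 and 597 CPM. Without the cell with most UMIs, Cxcl1 (0.76) and Saa3 (-0.83) were inside 2-fold there.

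**Figure D5:**
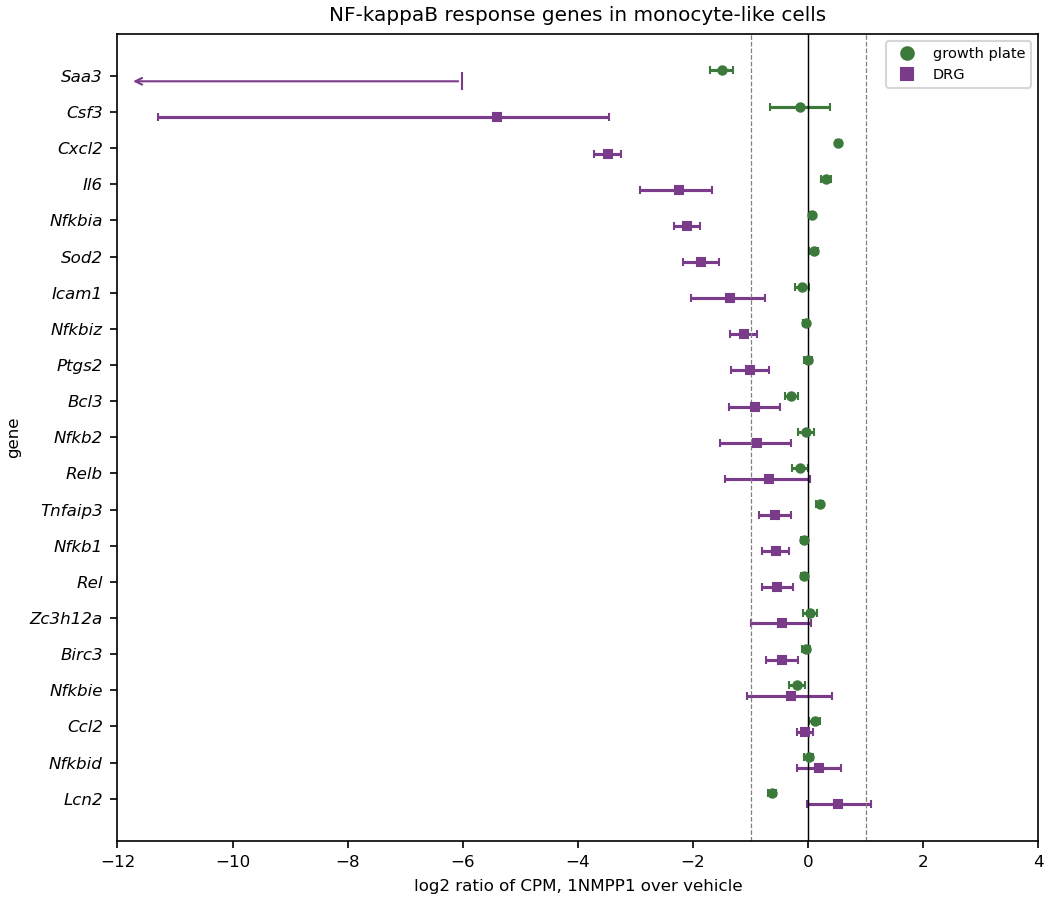
Log2 ratio of CPM (1NMPP1 over vehicle, with 95% counting intervals) of NF-κB response genes read in DRG monocyte-like cells (squares), with the growth plate monocyte-like ratios beside them (circles). Dashed lines mark 2-fold and the arrow starts at the upper bound for Saa3, which had 0 UMIs in 1NMPP1. In the DRG 9 of 21 genes lie on the lower side past 2-fold, among them Cxcl2 at -3.48 and Nfkbia at -2.10, while of the growth plate ratios drawn, those of the same genes, that of Saa3 (-1.50) alone lies past 2-fold.

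Other genes of that list passed in single classes. In growth plate osteoblast-like cells, where 6 genes were higher and 3 lower of 20 read (6.03% and 8.62% of all genes), Mmp13, a collagenase induced by interleukin 1 in stromal cells, was 952 and 233 CPM (ratio 2.03). Cxcl1 was 129 and 7.48 CPM (4.02), with its UMIs in 4 and 5 cells. The osteoblast and neutrophil marker sums of this class, given above, also differed between the libraries, and their part was not tested. Cxcl1 in growth plate macrophage-like cells was at -3.55, on 5 and 105 UMIs. Cxcl2 in growth plate conventional dendritic-like cells was 208 and 39.8 CPM (2.35), and in DRG macrophage-like cells 2292 and 4726 CPM (-1.04, and -0.88 without the cell with most UMIs). Nfkbiz in DRG macrophage-like cells was 1640 and 656 CPM (1.32). In DRG endothelial-like cells, where 13.8% of all genes were past 2-fold, Il6 was at -2.36 and Ptgs2 at 2.26, with 188 of the 253 Ptgs2 UMIs of 1NMPP1 in 1 cell and a ratio of 0.32 without it. In granulocyte progenitor-like cells, where 3.0% of all genes were past 2-fold, Ccl2 was at -1.57. In erythroid-like cells Nfkb1 was at -1.10 in the growth plate (-0.70 without the cell with most UMIs, and 12.1% of all genes past 2-fold) and -2.78 in the DRG, where Relb was at -1.31. Lcn2, also a granule gene of neutrophils, passed in T cell-like (2.05), conventional dendritic-like (2.26), macrophage-like (-1.33) and osteoblast-like (-1.33) cells in the growth plate, and in satellite glia-like cells (2.20) of the DRG. Without the cell with most UMIs the Lcn2 ratio was 1.57 in T cell-like, 0.70 in conventional dendritic-like, 0.72 in macrophage-like, -0.60 in osteoblast-like and -0.50 in satellite glia-like cells.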

How the data were processed

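Single cells from 4 droplet libraries, 1 per group, were measured. The deposited matrices hold unnormalised UMI counts. Per the file headers, the authors used Cell Ranger 7.2.0, and per the submitters' processing notes the build was mm10. No source used here says whether counting used strand, so reads of genes that overlap on opposite strands are uncertain. Total counts ran between 32790205 and 139703885 UMIs per library, and the lowest barcode held 500 to 503 UMIs.

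Barcodes under 200 genes or over 20% mitochondrial UMIs were dropped, and the highest Scrublet scores were removed at a rate of 0.8% per 1000 barcodes (1115, 731, 55 and 108 cells), because Scrublet's own threshold marked 524, 0, 2 and 0. Cells were clustered per tissue with scanpy 1.11.5 (2000 variable genes without members, list genes, mitochondrial, Xist and Y-linked genes, 30 principal components, 20 neighbours, Leiden resolution 1, splits at 0.5). A cluster took the name of the highest of 28 marker sets if its score reached 1, 3 or more of its markers were detected and no more leading genes of another class among its top 10, and otherwise stayed unnamed. The scoring rule was settled after clusters were seen. Names are rebuilt here and may differ from the study's.

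UMIs were summed per library and class of at least 30 cells. With 1 library per group no test between groups was run. CPM have exact Poisson, shares exact Clopper-Pearson and ratios exact conditional intervals (scipy 1.17.1). Only the ratio intervals were tested on simulated data. Those were Poisson counts drawn from class sums, which leave out the uneven spread of UMIs over cells. Ratios had 0.5 UMIs added. Intervals and floors (3 counts) cover counting error only. Named list genes are those past 2-fold with at least 100 UMIs over both libraries, and a few others were named after their values were seen. The members and lists were chosen with earlier results of these data known. The alternatives were other filters, doublet handling, resolution, scaling, depth, sex-marker subsets, UMI minimums, single clusters and leaving out single cells. Sequences are from RefSeq (GRCm38.p6), in which all 9 members were matched.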

Additional observations from a re-analysis of the deposited data

Results flagged for a closer look

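Members read in the same class of both tissues are given here where the counting intervals of the 1NMPP1 over vehicle ratio lay on opposite sides of 0 in the growth plate and in the DRG. Other pairs with ratios of opposite sign had at least 1 interval that held 0. The difference between the tissues was not tested in any of them, since each tissue has 1 library per group. Il1a in monocyte-like cells had a log2 ratio of 1.12 in the growth plate and of -3.07 in the DRG, the latter taken at a floor of 3 UMIs. Il1b in erythroid-like cells had a log2 ratio of 0.54 in the growth plate and -1.16 in the DRG, on 9 and 23 UMIs in the DRG. Without the cell with most UMIs these were -0.26 in the growth plate and -0.25 in the DRG, so the signs no longer differed. Il1r2 in monocyte-like cells had a log2 ratio of -0.41 in the growth plate and 0.86 in the DRG. Neutrophil markers in growth plate monocyte-like cells summed to 5896 CPM in 1NMPP1 and 8982 CPM in vehicle. In DRG monocyte-like cells they summed to 3302 CPM in 1NMPP1 and 1506 CPM in vehicle. Their part in the Il1r2 ratios was not tested.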

How the results depend on the processing

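No paired analysis was possible because each group has 1 library. Leaving out a library was likewise not possible, so nothing here measures the spread between mice. Where a value differed under an alternative, the cause was not tested. When scaled by the median ratio, all 13 growth plate calls had the same sign and were past 2-fold, and all 8 DRG calls had the same sign with 6 past 2-fold. Leaving out the leading cell and giving each shared cluster on its own were chosen after seeing the data, unlike the largest cluster of each class. The number of member and class pairs past 2-fold, 13 in the growth plate and 8 in the DRG, was 5 and 3 in cells with Y-linked RNA but without Xist, 4 and 2 in cells with Xist but without Y-linked RNA, 1 and 2 after thinning, 8 and 5 without the leading cell, and 8 and 2 with at least 100 UMIs. In the DRG it was 14 with each cell weighing alike and 1 in the largest cluster of each class. These are counts of the pairs called under each setting, and some were not among the calls above. Of the 13 growth plate and 8 DRG calls, 6 and 4 were past 2-fold after thinning, and 4 and 5 without the leading cell. In cells with Y-linked RNA but without Xist, 5 and 2 of those calls had a value, and 2 and 1 were past 2-fold. In cells with Xist but without Y-linked RNA, 2 and 3 had a value, and 1 and 2 were past 2-fold.

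Reversed ratios were those of Il1r2 in growth plate NK cell-like cells (-1.03 in the largest cluster, -0.72 without the leading cell, -0.97 with at least 500 genes a cell, -0.90 at Leiden resolution 2), Il1r1 in growth plate T cell-like cells (-1.67 in cells with Y-linked UMIs, -2.77 without the leading cell) and Il1r2 in basophil and mast-like cells (-1.02 without the leading cell). Il1r2 in plasmacytoid dendritic-like cells was at 0.022 in cells with Xist and 0.013 with no doublet removal, Il18 in DRG B cell-like cells at -0.19 in cells with Y-linked UMIs, and Il1b in DRG erythroid-like cells at 0.91 in the largest cluster.

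Shares of a member's UMIs in neutrophil-like cells are given for growth plate 1NMPP1, growth plate vehicle, DRG 1NMPP1 and DRG vehicle. With no doublet removal they were 60.9%, 63.4%, 69.3% and 62.0% for Il1b, 75.8%, 76.9%, 92.4% and 89.1% for Il1r2, and 85.4%, 85.4%, 92.1% and 93.4% for Il1f9. Thinned, they were 91.9%, 89.3%, 88.8% and 81.3% for Il1b, 93.3%, 89.7%, 97.9% and 96.0% for Il1r2, and 95.8%, 99.0% and 100% for Il1f9 (growth plate 1NMPP1 and the DRG libraries). With each cell weighing alike they were 91.2%, 87.7%, 87.7% and 82.2% for Il1b, 91.7%, 87.3%, 98.0% and 96.6% for Il1r2, and 91.8%, 99.6% and 99.2% for Il1f9 (growth plate vehicle and the DRG libraries). At a mitochondrial limit of 10% the growth plate shares were 79.6% and 78.2% for Il1b, and 92.6% for Il1r2 in 1NMPP1. With at least 500 genes a cell they were 80.4% for Il1b in 1NMPP1, and 92.7% and 89.9% for Il1r2. At Leiden resolution 2 they were 93.1% and 90.2% for Il1r2, and 96.1% and 94.4% for Il1f9.

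List pairs past 2-fold depended on the UMI minimum. With at least 100 UMIs the growth plate counts were 0 for other receptors, 1 for the inflammasome, 0 for signalling and 12 for NF-κB, and the DRG counts 0, 1, 6 and 15. With no minimum the growth plate counts were 7 for other ligands, 19, 21, 11 and 53, and the DRG counts 8, 25, 22, 17 and 58. The share over all genes at these minimums is not given here. The counts are therefore not read as a result about the lists. Low counts limit Il1a, Il18, Il1r1 and Il1rl1 in most classes.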
